A study of Mus musculus with 16 samples.

Results

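Cytosolic ribosomal proteins are the protein subunits of the ribosomes that translate nuclear-encoded mRNA. They were taken here as the genes of the deposited table whose name begins with Rpl (large subunit) or Rps (small subunit) and a digit, without the Rps6k kinases, Rps19bp1 and pseudogene names, and with at least 1 RPKM (reads scaled to the length of the gene and to the size of the library) in at least 4 of 16 libraries. Of 81 names that matched, 77 reached that level, 46 Rpl and 31 Rps genes, among 10171 genes at that level and 23440 in the table. Each library was made from the poly(A) RNA of the gastrocnemius, a calf muscle, of a separate male C57Bl6/J mouse aged 20 weeks. The 4 groups held 4 mice each: wild-type (WT) untrained, WT trained, Il13-/- (KO) untrained and Il13-/- trained, where training was 5 weeks of treadmill running every day. The KO mice lack interleukin-13, a type 2 cytokine, in every cell, and the series asked how muscle transcripts respond to endurance training without it. The steps between low RPKM values gave the library sizes, which lay between 16307025 and 20074677 reads, the median being 17780533. Il13 had 0 reads in all 8 WT libraries and 0 to 2 in the KO libraries, all below the 3 reads that 0 counts still leave possible, so its level does not check the genotype. The 9 markers of skeletal muscle fibres summed to between 65663 and 85667 RPKM, against 62.3 to 144.03 RPKM for 10 macrophage and 94.7 to 131 RPKM for 9 endothelial markers.

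A ribosome needs 1 copy of nearly every one of these proteins, and surplus copies that find no partner are degraded, so cells tend to make them in step. Translation of their mRNAs is held under shared control: most begin at a C followed by a run of pyrimidines, the 5′ terminal oligopyrimidine (TOP) tract, through which the growth kinase complex mTORC1 and the RNA-binding protein Larp1 set how much of each mRNA is on ribosomes. In skeletal muscle, ribosome number is known as a limit on protein synthesis and on growth after loading. A few members exist as related pairs of genes (paralogues), of which Rpl3l, a striated muscle form of Rpl3, is the best known in this tissue.

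The annotated starts were searched for the feature that gives TOP mRNAs their name. RefSeq transcription starts (GRCm38.p6) were found for 58 of the 77 members. A C at the annotated start followed by 4 further pyrimidines, read on the strand of the gene, stood at 12 of these 58 genes, 20.7%, against 3.01% of 27025 genes in the same reference. Counting starts, it was 17.1% of 70 against 2.51% of 32851. With the C allowed up to 5 bases to either side it was 42.9% against 18.3% of starts, so the annotated base bears on the count. The windows below run from 10 bases before the start to 20 from it, 5′ to 3′, with the pyrimidine run that holds the start base in capitals. The first 6 show such a run, and Rps21 is also 1 of the members with the smallest p between genotypes. The last 4 lack a run at the annotated start and are members whose values are described further on.
Rps6 (chr4:86857348-86857377, minus strand): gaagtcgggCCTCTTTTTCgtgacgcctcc
Rps18 (chr17:33955646-33955675, minus strand): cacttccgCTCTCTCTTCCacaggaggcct
Rps21 (chr2:180257369-180257398, plus strand): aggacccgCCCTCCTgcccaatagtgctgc
Rps27 (chr3:90213629-90213658, minus strand): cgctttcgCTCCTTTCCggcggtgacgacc
Rpl35 (chr2:39005112-39005141, minus strand): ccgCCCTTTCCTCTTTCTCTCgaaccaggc
Rpl28 (chr7:4792955-4792984, plus strand): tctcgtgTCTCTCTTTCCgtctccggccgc
Rps26 (chr10:128626487-128626516, minus strand): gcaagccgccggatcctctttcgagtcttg
Rps27l (chr9:66946076-66946105, plus strand): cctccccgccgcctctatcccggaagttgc
Rpl22l1 (chr3:28805498-28805527, plus strand): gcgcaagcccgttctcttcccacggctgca
Rpl3l (chr17:24727816-24727845, plus strand): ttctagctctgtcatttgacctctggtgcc
In Rps26, Rps27l and Rpl22l1 the annotated start base is a G, and a run of pyrimidines follows it within a few bases. In Rpl3l the annotated start base is also outside any such run.

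Most members were abundant and lay close together in level. The mean over 16 libraries had a median of 183 RPKM, and 70 of the 77 members lay between 75 and 420 RPKM. The highest were Rps2, a protein of the mRNA entry site, at 416 RPKM, Rps29, a small zinc-binding protein, at 414 RPKM, Rpl23a, which lies at the exit of the peptide tunnel, at 411 RPKM, Rpl4, whose loop lines that tunnel, at 357 RPKM, and Rps20 of the small-subunit head at 334 RPKM. Together these 5 held 13.0% of the summed level of the members. Within groups the SD of log2 values had a median of 0.11 over the members and 0.15 over all genes tested.

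**Figure D1:**
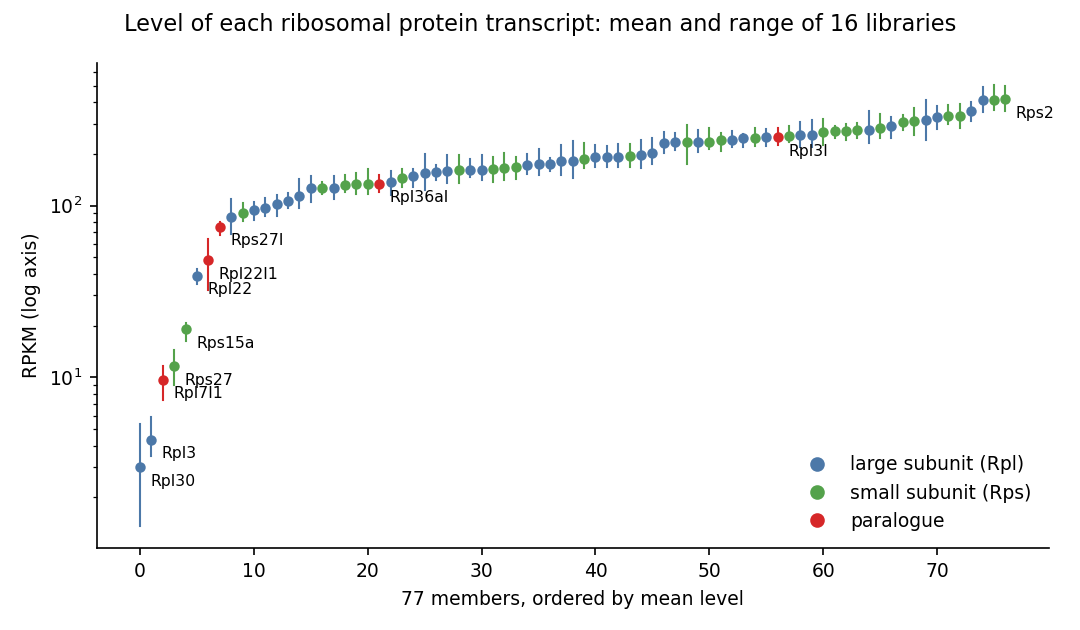
Each point is the mean RPKM of 1 member over 16 libraries on a log axis, ordered by that mean, and the line runs from the lowest to the highest library. Points are blue for the large subunit, green for the small subunit and red for paralogues. From about 75 RPKM upward the members form a shallow slope to Rps2 at 416 RPKM, while 7 members lie under 50 RPKM.

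The 7 members under 50 RPKM were Rpl30 at 3.002, Rpl3 at 4.34, Rpl7l1 at 9.71, Rps27 at 11.6, Rps15a at 19.04, Rpl22 at 39.1 and Rpl22l1 at 48.1 RPKM. Rpl3, which lies next to the peptidyl transferase centre, had at least 83 reads in every library. Rpl30, a protein known for binding its own transcript, had 16 to 62 reads and the widest spread of all members, with a within-group SD of 0.59 in log2. The next widest were Rpl3 at 0.21 and Rpl22l1 at 0.21. Just outside the level threshold, Rpl26 had 2 reads in 1 library and 0 in the other 15, Rpl39l reached at most 4 reads, and Rpl10l and Rps4y2 had 0 in every library. Such low values for proteins that every ribosome is known to carry, such as Rpl26, Rpl30 and Rps27, are levels in this table only, since the sources used here do not say how reads that fit several places were counted.

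The sequence shared with other genes shows how far that question reaches. Of the 50-base stretches of each member's transcripts (GENCODE M21), a median of 40.1% also occurred in a transcript of another gene, from 0%, as for Rpl3l, to 86.7% for Rps18. More than 50% were shared in 28 of the 77 members, against 2.89% of 9523 tested genes with a transcript. Ribosomal proteins are known for their many processed pseudogenes. Members with much shared sequence stood both high and low: Rps18 stood at 236 RPKM, Rpl10 with 85.4% shared at 327 RPKM, and Rpl3 with 85.6% shared at 4.34 RPKM. Rpl30 had 29.7% shared and Rpl7l1 9.03%. Among the other paralogue pairs, Rpl22l1 had 57.3% and Rpl22 5.19% shared, while Rps27 had 63.1% and Rpl36a 85.5%. The part of shared sequence in these levels was not tested.

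**Figure D2:**
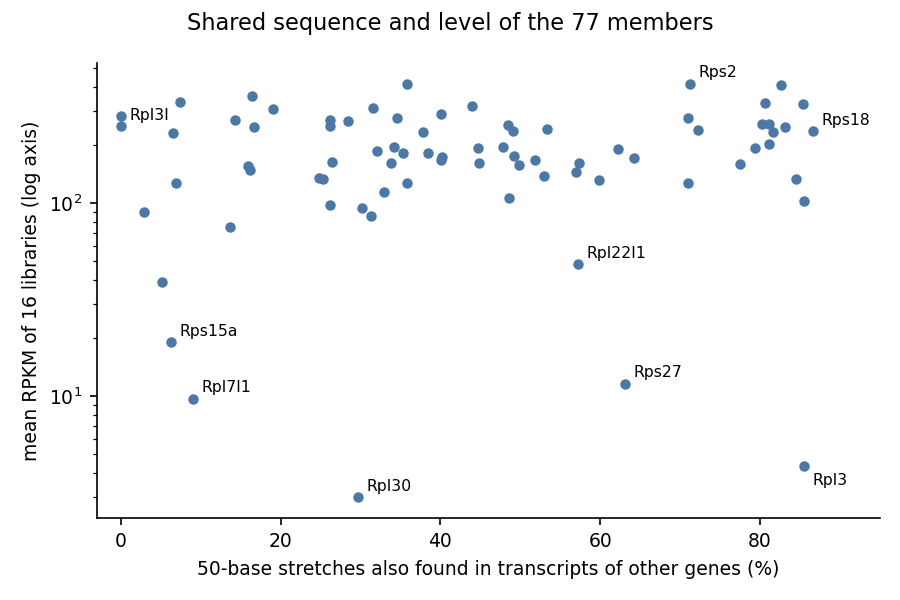
Each point is 1 of the 77 members. The horizontal axis gives the percent of its 50-base stretches that also occur in transcripts of other genes, and the vertical axis its mean RPKM over 16 libraries on a log axis. Members with over 80% shared include both Rps18 at 236 RPKM and Rpl3 at 4.34 RPKM.

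Paralogue pairs differed widely in which gene was the higher. Rpl3l was the higher of its pair in this muscle. In WT mice it had 236, 277, 265 and 260 RPKM untrained and 285, 244, 260 and 250 RPKM trained. In KO mice it had 255, 242, 248 and 225 RPKM untrained and 250, 234, 237 and 253 RPKM trained. All 4 groups overlapped. Its level was 59.3 ± 9.86 times that of Rpl3 (SD, n = 16), from 42.5 to 74.9. Rpl3 shares most of its 50-base stretches with other genes and Rpl3l none.
Rpl7 was 25.03 ± 2.68 times as high as Rpl7l1, a factor that also takes part in ribosome assembly. Rps27l, a relative of Rps27 known as a target of p53, was 6.61 ± 1.01 times as high as Rps27. Rpl36al was 1.31 ± 0.0997 times as high as Rpl36a, and Rpl22, an RNA-binding protein of the large subunit, was 0.849 ± 0.209 times as high as Rpl22l1. The range of this last ratio was 0.611 to 1.32, so the higher gene of that pair differed between libraries. Rpl39, a short protein of the exit tunnel, had 149.17 RPKM, while its testis relative Rpl39l stayed under 1 RPKM in every library. Rpl10 stood at 327 RPKM and Rps4x at 240 RPKM, with Rpl10l at 0, and no value was analysed here under the name Rps4l.

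Most members were high or low together from library to library. Over 16 libraries, 72 of the 77 had a correlation over 0.5 with the mean of the other members. Rpl22l1 ran the other way, at -0.53, and Rpl30 did not follow, at -0.10. The summed level of the members in WT mice was 15525, 16791, 15776 and 15888 RPKM untrained and 17195, 14471, 13628 and 13298 RPKM trained. In KO mice it was 15429, 14083, 15516 and 13622 RPKM untrained and 13983, 13287, 13766 and 14828 RPKM trained. Library 1 of the WT trained group was the highest of all 16 and the other 3 of its group were below every WT untrained library. All other groups were narrower. The WT means were 15995 ± 552 RPKM untrained and 14648 ± 1768 trained, and the KO means 14662 ± 955 untrained and 13966 ± 644 trained (SD, n = 4). Without WT trained 1 that group's mean was 13799 ± 605 (n = 3). As a share of library totals the members held 1.21% ± 0.0390 in untrained and 1.12% ± 0.131 in trained WT mice, and 1.12% ± 0.0696 in untrained and 1.07% ± 0.0481 in trained KO mice.
Both subunits kept their proportion. The Rpl sum was 1.24 ± 0.00895 times the Rps sum over 16 libraries, from 1.23 to 1.26, while the total itself ran from 13287 to 17195 RPKM. WT trained 1 held the highest value of all 16 libraries for 45 of the 77 members, and 75 of 77 were above their group mean there. In KO untrained 1 and 3 it was 75 and 73, in KO trained 4 it was 75, and in KO untrained 4 and WT trained 4 it was 1 and 2. By group means, 70 members were highest in WT untrained and 54 were lowest in KO trained libraries.

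**Figure D3:**
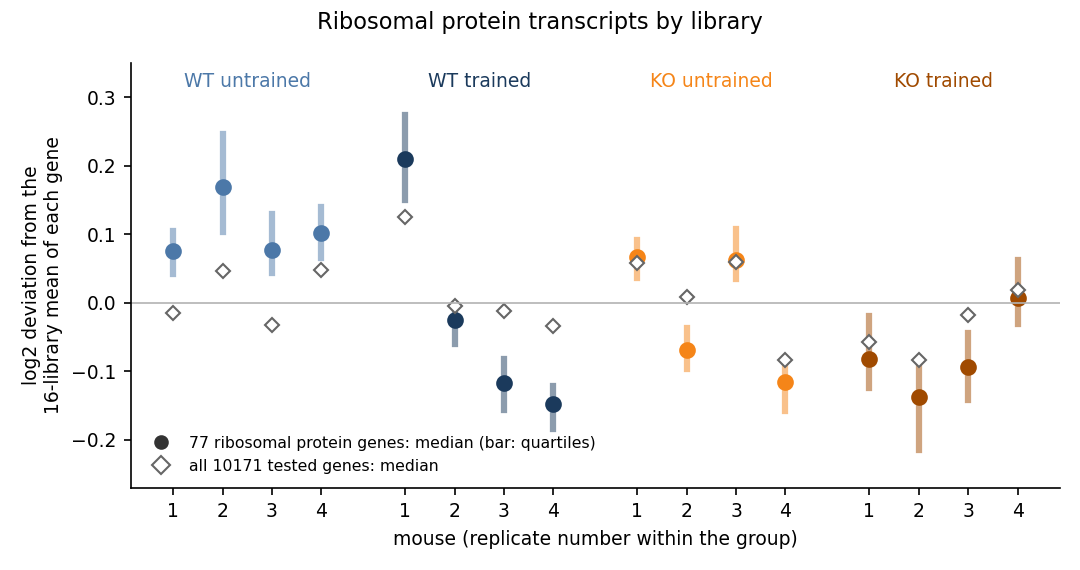
For each of the 16 libraries, filled circles give the median log2 deviation of the 77 members from their own mean over all libraries, bars give the quartiles, and open diamonds give the same median for all 10171 tested genes. WT trained 1 is the highest circle at 0.21 and WT trained 4 the lowest at -0.15, within 1 group.

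Other features of the libraries were set beside these levels. The genes of the table held 83.5% of reads in WT trained 1 and 76.0% to 78.8% in the other WT trained libraries. The share was 82.3% ± 1.57 for untrained WT, 79.9% ± 1.95 for untrained KO and 76.7% ± 1.27 for trained KO mice. The median deviation of all tested genes was also highest in WT trained 1, at 0.13. The 10 markers of fibro-adipogenic progenitors, the connective tissue cells between fibres, summed to 969, 880, 754 and 751 RPKM in the WT trained libraries, the same order as the ribosomal sums. In WT untrained they summed to between 737 and 881 RPKM, in KO untrained to between 735 and 984, and in KO trained to between 597 and 909. The order of the libraries also matched that of the ribosomal sums in KO untrained, but not in WT untrained or KO trained mice. The 8 tendon markers had the ribosomal order in KO untrained mice too, at 161, 154, 230 and 138 RPKM, but not in WT trained mice. Several marker lists were read, and 4 libraries can fall in the same order by chance. The 10 macrophage markers summed to 63.7 to 128 RPKM in untrained and 81.1 to 122 RPKM in trained WT mice, and to 74.5 to 144.03 RPKM in untrained and 62.3 to 142 RPKM in trained KO mice. No marker of the fibro-adipogenic or macrophage list was at 0 in every library of the series. Their part in the levels was not tested, and in whole muscle a change in the number of cells of a type and in RNA per cell cannot be told apart.

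The effect of training in WT muscle was the first comparison. No member passed an adjusted p of 0.05 (limma on log2(RPKM + 0.1), Benjamini-Hochberg over 10171 genes), where 19 genes, 0.187%, did. The log2 difference, trained minus untrained, was below 0 for 74 of 77 members, against 47.6% of all genes, with a median of -0.13 over the members and 0.01 over all genes. The smallest and the largest member differences were -0.28 and 0.10. At an unadjusted p under 0.05 there were 17 members, all lower, which is 22.1% against 5.71% of all genes lower at that level.
Rps20 had the smallest p. Its levels were 370, 390, 381 and 371 RPKM in untrained and 371, 314, 285 and 283 RPKM in trained WT mice. Trained library 1 lies among the untrained values and the other 3 lie below all of them. The log2 difference was -0.28 (SE 0.07, adjusted p = 0.105).
Rps27l was the only member whose WT groups did not overlap, at 79.5, 80.8, 76.0 and 76.9 RPKM untrained against 72.4, 71.8, 71.8 and 67.5 trained; 2.62% of all genes were lower without overlap. Its difference was -0.14 (SE 0.05, adjusted p = 0.265).
Rps7, a small-subunit protein that also binds Mdm2, had 140.60, 151.7, 141.03 and 140.73 RPKM untrained and 147.92, 122.7, 120.93 and 119.5 RPKM trained, a difference of -0.17 (SE 0.07, adjusted p = 0.324). As with Rps20, only trained library 1 reached into the untrained range. The 3 members above 0 were the paralogues Rpl7l1, Rpl22l1 and Rpl3l, at 0.10, 0.01 and 0.00.

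The calls of members in this comparison depended on the scaling and on single libraries. With all 16 libraries, Rps20 passed with quantile normalization (1.52% of all genes) and with libraries centred on their median (1.41%), and Rpl23a passed with quantile normalization. With weights per library 14 members passed, all lower, where 3.23% of all genes passed. WT trained 1 had the lowest weight of the 16 libraries there, 0.309, and all 14 also passed without that library. The members' median was -0.06 when scaled to reads in listed genes, where that of all genes was 0.08. Without WT trained 1, 272 genes passed (2.67%, of which lower 2.02%), and 18 members passed, all of them lower in trained mice. They included Rps20, Rpl10a, Rpl17, Rpl13, Rpl4, Rpl37, Rps15, Rpl13a, Rps7, Rpl28, Rps29, Rpl37a, Rpl32, Rpl23a, Rpl14 and Rps14, from both subunits, with differences between -0.37 for Rps20 (SE 0.06, adjusted p = 0.0102) and -0.19 for Rpl14 (SE 0.05, adjusted p = 0.0477). The median over the members was then -0.20, and 63 members had no overlap between the groups, 81.8% against 12.1% of all genes lower without overlap. Leaving out instead library 3 of the untrained WT mice, or library 3 or 4 of the trained WT mice, the median was -0.14, -0.10 and -0.09, and 0 genes and 0 members passed in each case. At an unadjusted p under 0.05 there were then 7, 2 and 2 members, against 8.95%, 9.09% and 8.48% of all genes. The labels give no reason to set any of these mice aside. Markers of several cell types differed here too, with no marker past the threshold. Of the tendon markers 6 of 7 tested were higher in trained WT mice, with a median of 0.75, and all 8 summed to between 115.06 and 145.6 RPKM untrained and between 191.2 and 246.3 RPKM trained. All 7 adipocyte markers were higher, with a median of 0.27. Of the skeletal fibre markers 7 of 9 were lower, with a median of -0.23, and their sum was 78196 to 85667 RPKM untrained and 65663 to 76006 RPKM trained. Their part in the ribosomal values was not tested.

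**Figure D4:**
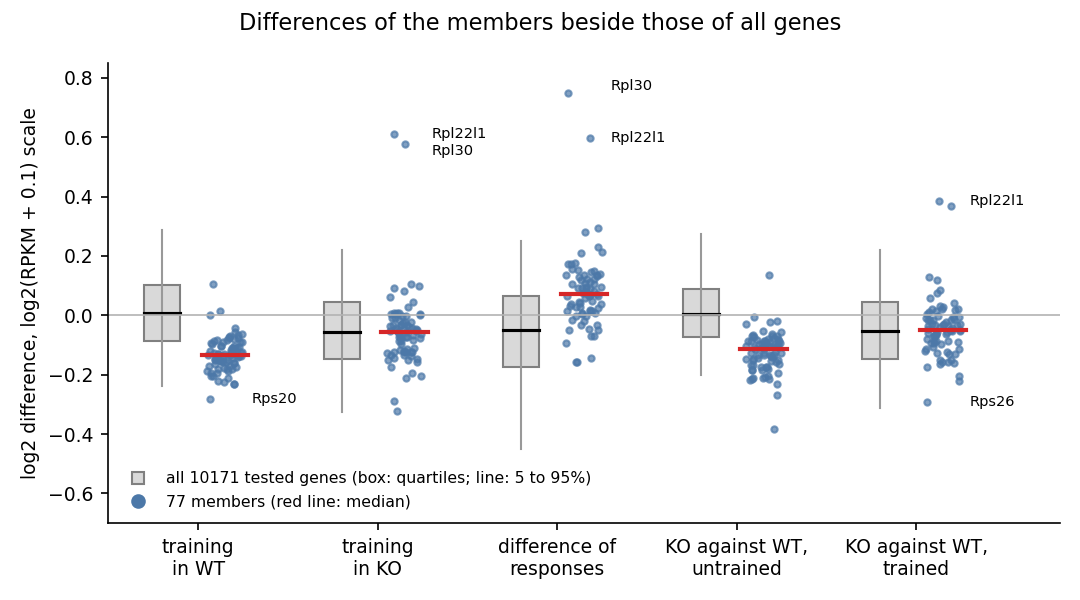
For each of the 5 comparisons, the grey box and line give the quartiles and the central 90% of log2 differences over all 10171 tested genes, blue points give the 77 members and red lines their medians. In WT training and in KO against WT untrained the members sit below 0 as a block, at medians of -0.13 and -0.12; in KO training and in KO against WT trained their medians lie at that of all genes.

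Training in KO muscle was the next comparison. No gene passed the threshold (0% of 10171), while 1398 had an unadjusted p under 0.05. The members' median of -0.06 equalled that of all genes, -0.06, and 61 of 77 were below 0 against 64.9% of all genes. At an unadjusted p under 0.05 there were 4 members lower and 1 higher, against 8.90% and 4.85% of all genes.
The 1 higher was Rpl22l1, the paralogue of Rpl22, which can stand in for it in the ribosome and is known to be held down by Rpl22 through splicing of its transcript. Its levels were 45.2, 40.7, 32.7 and 39.96 RPKM in untrained and 64.0, 61.4, 54.9 and 60.6 RPKM in trained KO mice. Every trained library lay above every untrained one, as it did for 4.00% of all genes. The log2 difference was 0.61 (SE 0.13, adjusted p = 0.139), the highest among the 77 members. Of the 50-base stretches of Rpl22l1, 57.3% also occur in transcripts of other genes. The part of this in its values was not tested.
In WT mice Rpl22l1 had 47.6, 49.7, 43.7 and 41.9 RPKM untrained and 32.4, 48.2, 52.9 and 54.3 RPKM trained. The low value was that of WT trained 1, the library in which 45 other members had their highest value. The difference in WT was 0.01 (SE 0.13, adjusted p = 0.981), and without that library it was 0.18. The KO result also changed without that library, which belongs to another group and enters only through the spread: without it the KO difference was the same 0.61 with an SE of 0.09 and an adjusted p of 0.0122, and 106 genes passed.
Its partner Rpl22 had 40.9, 39.7, 40.7 and 36.9 RPKM in untrained and 39.3, 37.5, 38.4 and 40.3 RPKM in trained KO mice, which overlapped fully, with a difference of -0.02 and an interval of ± 2 SE from -0.14 to 0.10. The ratio of Rpl22 to Rpl22l1 was 1.01 ± 0.159 for untrained and 0.647 ± 0.0428 for trained KO mice, and 0.882 ± 0.0558 and 0.856 ± 0.312 in the WT groups.

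Rps26, a protein at the mRNA exit that touches the start codon context, had 251, 226, 258 and 219 RPKM in untrained and 201, 174, 194 and 213 RPKM in trained KO mice. The trained values were all below the untrained, as they were for 5.43% of all genes. The difference was -0.29 (SE 0.09, adjusted p = 0.257). Rpl36al, a protein of the tRNA exit site, overlapped between the groups, with 138, 139, 143.88 and 131 RPKM against 120, 132, 120 and 127 RPKM, a difference of -0.15 (SE 0.06, adjusted p = 0.300). Rpl28 was the other member with no overlap, lower in trained KO mice. Rpl30 had a difference of 0.58 with an SE of 0.39, on 16 to 62 reads a library. Markers of several cell types were lower in trained KO mice in the same comparison, where 64.9% of all genes were below 0. None passed the threshold. Lower were all 7 tested of the adipocyte list (median -0.62), of the Schwann cell list (-0.64) and of the tendon list (-0.30). All 10 of the fibro-adipogenic list were also lower (-0.21). The 4 red blood cell markers tested were all higher (median 0.35), and of the fibre markers 6 of 9 were lower. Their part in the ribosomal values was not tested.

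**Figure D5:**
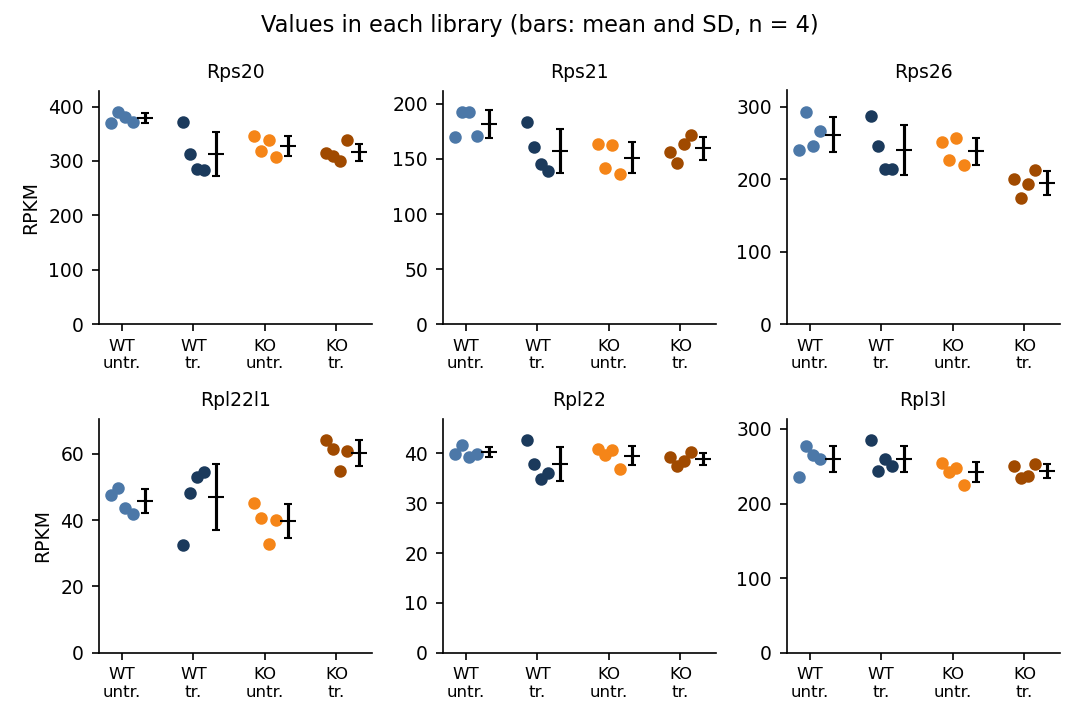
RPKM of 6 members in each of the 16 libraries, with the mean and SD of each group (n = 4) beside the points and all axes starting at 0. In Rpl22l1 the 4 KO trained points lie above every other library, in Rps26 the KO trained points lie lowest, and Rpl22 and Rpl3l show little spread.

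The difference between the training responses, KO minus WT, was tested directly. No gene passed (0%; 854 at an unadjusted p under 0.05). The median was 0.07 over the members and -0.05 over all genes, and 62 of 77 members were above 0, where 61.6% of all genes were below 0. At an unadjusted p under 0.05 there were 6 members, all higher, 7.79% against 2.35% of all genes: Rpl22l1, Rps21, Rps15a, Rps27l, Rpl34 and Rps20. Rpl22l1 differed by 0.60 (SE 0.19, adjusted p = 0.526), Rps21 by 0.29 (SE 0.12, adjusted p = 0.551) and Rps15a by 0.21 (SE 0.09, adjusted p = 0.563). In WT mice Rps15a had 19.7, 19.6, 19.7 and 19.7 RPKM untrained and 20.1, 18.8, 17.3 and 16.4 RPKM trained. In KO mice it had 19.9, 18.5, 18.9 and 17.0 RPKM untrained and 19.3, 19.6, 19.5 and 20.7 RPKM trained. Its WT untrained values lay within 1 RPKM of each other and the trained WT values spread to both sides of them. In the same comparison all 7 tendon markers tested were below 0, with a median of -1.10, and all 7 adipocyte markers, with a median of -0.89, none past the threshold, and their part was not tested. Training responses of the 2 genotypes are thus not shown to differ for any member.

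Among untrained mice, nearly all members had a lower mean in KO than in WT muscle. The log2 difference was below 0 for 76 of 77, against 48.6% of all genes, and the exception was Rpl3 at 0.14. The median was -0.12 over the members and 0.00 over all genes. No member passed the threshold, and 5 genes did (0.0492%). At an unadjusted p under 0.05 there were 11 members, all lower, 14.3% against 2.99% of all genes. In 16 members every KO library lay below every WT library, 20.8% against 2.37% of all genes.
Rps21, a small-subunit protein at the edge of the ribosome, had 170, 193, 193 and 171 RPKM in WT and 164, 142, 162 and 137 RPKM in KO. The KO values lay below the WT values with a narrow gap. The difference was -0.27 (SE 0.09, adjusted p = 0.780).
For Rps20 the KO values were 345, 318, 338 and 307 RPKM, all under the lowest WT value of 370, with a difference of -0.21 (SE 0.07, adjusted p = 0.780). Rps29 had 457, 474, 458 and 442 RPKM in WT and 407, 383, 428 and 368 RPKM in KO, also apart, with a difference of -0.21 (SE 0.08, adjusted p = 0.780). The other members without overlap included Rpl23a, Rps7, Rps27a, Rps15, Rpl19, Rpl37, Rps25, Rpl17, Rps3a1, Rps4x and Rpl4.
This comparison and training in WT use the same 4 WT untrained libraries, so a high level of the members in those mice enters both. The median lay between -0.14 and -0.09 without each of the 16 libraries in turn, and was smaller, -0.05, with quantile normalization and -0.07 when scaled to reads in listed genes. Scaling to listed reads shifts all genes of a comparison alike, so the members' distance from the median of all genes stays the same. Markers of several other cell types were higher in KO here, with no marker past the threshold. These were 7 of 7 adipocyte markers with a median of 0.73, 7 of 7 Schwann cell markers at 0.54, 6 of 7 tendon markers at 0.44, 5 of 5 smooth muscle markers at 0.17, 10 of 10 fibro-adipogenic markers at 0.15 and 8 of 8 tested macrophage markers at 0.14. Of the endothelial markers 5 of 9 were higher. Of the red blood cell markers 3 of 4 tested were lower, with a median of -0.07. Of the fibre markers 8 of 9 were lower, with a median of -0.11. Their part in the ribosomal values was not tested.

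Among trained mice the median over the members equalled that over all genes. Of 77, 60 were below 0 in KO minus WT, against 65.2% of all genes, and both medians were -0.05. The members' median changed sign without WT trained 1, to 0.04 (25 members below 0, against 54.9% of all genes, whose median was then -0.02). It was also above 0 with quantile normalization, at 0.05, and with weights per library, at 0.02. No member passed, and 9 genes did (0.0885%). The 3 members with the smallest p were also those without overlap between the genotypes, 1 lower (5.86% of all genes) and 2 higher (2.63%). Rps26, with 287, 245, 214 and 215 RPKM in trained WT and 201, 174, 194 and 213 RPKM in trained KO mice, differed by -0.29 (SE 0.09, adjusted p = 0.230). Rpl22l1 differed by 0.39 (SE 0.13, adjusted p = 0.243), the values being those given above. Rps27l, at 72.4, 71.8, 71.8 and 67.5 RPKM in WT against 79.7, 77.8, 72.9 and 77.4 RPKM in KO, differed by 0.12 (SE 0.05, adjusted p = 0.328). All 7 tendon markers tested were lower in trained KO than in trained WT mice, with a median of -0.74 and none past the threshold, and their part was not tested.

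For Rpl3l the difference with training was near 0 in both genotypes. It was 0.00 in WT, with an interval of ± 2 SE from -0.13 to 0.13, and 0.01 in KO, from -0.12 to 0.13. KO minus WT it was -0.10 in untrained and -0.09 in trained mice (adjusted p = 0.807 and 0.517).

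Other genes of the translation machinery were read from lists. Of the 7 measured ribosomal proteins that the name rule leaves out, which include the stalk proteins Rplp0, Rplp1 and Rplp2, all 7 were lower in trained WT mice (median -0.15) and all 7 lower in untrained KO than in untrained WT mice (median -0.15), with none past the threshold. Rplp1 had 636, 691, 680 and 625 RPKM in WT untrained and 708, 556, 534 and 505 RPKM in WT trained libraries, and again trained library 1 was the high one. Its difference was -0.20 (SE 0.08, adjusted p = 0.342).
Of 14 translation factors and other mRNAs known to carry a TOP tract, none passed in any comparison. The median was -0.07 with training in WT and -0.09 in KO, and 0.00 between genotypes in untrained mice, with 7 higher and 7 lower. Among them Hnrnpa1, a splicing regulator, had 12.02, 10.02, 9.02 and 9.94 RPKM in untrained and 14.6, 18.1, 17.2 and 16.9 RPKM in trained KO mice. These groups did not overlap. The difference was 0.70 (SE 0.16, adjusted p = 0.139). In trained mice it was 0.62 higher in KO than in WT (adjusted p = 0.193).
Of 32 ribosome assembly factors and RNA polymerase I genes, none passed in any comparison, with medians of -0.04 for training in WT and -0.07 in KO. Tcof1, the nucleolar treacle protein, was at -0.17 with training in both genotypes (adjusted p = 0.342 and 0.296).
Of 19 genes of the mTOR pathway and Myc, none passed. Eif4ebp1, the inhibitor of cap-dependent translation that mTORC1 inactivates, had 46.3, 39.4, 40.4 and 50.1 RPKM in WT untrained and 38.6, 33.4, 34.2 and 30.99 in WT trained libraries. In KO it had 43.6, 39.8, 40.5 and 40.01 untrained and 30.6, 30.04, 32.4 and 34.8 trained. In both genotypes every trained library lay below every untrained one. The differences were -0.36 in WT (SE 0.08, adjusted p = 0.0606) and -0.36 in KO (SE 0.08, adjusted p = 0.139). Rps6kb1, which encodes the kinase that phosphorylates Rps6, differed by 0.29 between trained KO and trained WT mice (SE 0.09, adjusted p = 0.206). Larp1, the protein that binds TOP tracts, was at -0.17 with training in KO (SE 0.06, adjusted p = 0.257).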

How the data were processed

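The members and the gene lists were chosen with earlier results of these data known. The authors deposited RPKM values of trimmed reads, per the file headers. The submitters' processing notes name mm10 as the genome build. Not given in the sources used here were the aligner, the annotation, the use of strand and the handling of reads that fit several places. The mouse identifiers in the labels tied each column to its sample. Solving gene lengths and library totals from the steps between low values gave whole reads within 0.01 read for all 17402 genes above 0; they were used for depth and 1 alternative test. Floors cover counting error only.

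A single limma fit (3.58.1, trend and robust, statmod 1.5.0, R 4.3.3) on log2(RPKM + 0.1) with 1 mean per group over 16 libraries gave 5 contrasts for the 10171 genes that reached 1 RPKM in 4 or more libraries, two-sided, adjusted by Benjamini-Hochberg at 0.05. Fold changes on this scale understate those of low genes. No scaling beyond the total was applied. The fit was tested on simulated counts with known changes larger than those of nearly all members and without shifts of whole libraries. That test therefore does not bear on differences of the size seen in most members. P-values measure the spread between these mice. In each contrast the 3 members with the smallest p were named where none passed, with the 5 highest and 5 lowest members, the paralogues, the 3 with the widest spread, and the 2 genes of each list with the smallest p, of which some are printed; Rpl28 and Rpl34 among others are named where a count is spelled out. A few genes are counted but not reported by name here. Same-numbered libraries are different mice and were not paired. Alternatives were other scalings, filters and pseudocounts, only the groups compared, a replicate block, weights per library, and leaving out each library; scaling to reads in listed genes and voom on the recovered reads were added after seeing the data. Tables and plots were made in Python (3.11.15; pandas 2.3.3, matplotlib 3.10.9, NumPy 2.4.6).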

Additional observations from a re-analysis of the deposited data

Results flagged for a closer look

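In 80 groups of 4 libraries, over the members named by rule, 5 held a library whose gap to the nearest other exceeded Dixon's 95% critical share of the group's range for 4 values, which chance gives in about 1 group in 20. Library 2 of the WT untrained group was the one in 3 of them: Rps7 at 151.7 RPKM against 140.60 to 141.03 in the others, Rpl36al at 148.2 against 137.8 to 138.9, and Rps27 at 10.7 against 13.2 to 13.5. Rps7 in WT trained library 1 stood at 147.9 RPKM against 119.5 to 122.7 in the others. Rps27l in WT trained library 4 stood at 67.5 RPKM against 71.8 to 72.4.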

How the results depend on the processing

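No member passed the threshold with the settings above, and for most alternatives this held. For training in WT, 0.187% of tested genes passed. The share was 1.52% with quantile normalization, 1.41% with libraries centred on their median, 0.0172% without a filter, 1.01% with a filter at 5 RPKM, 0.383% with a pseudocount of 1 RPKM, 0.344% with only the groups compared, 3.23% with weights per library, 0.629% with voom and 2.32% scaled to reads in listed genes. Members past the threshold there were 2 with quantile normalization (Rps20 and Rpl23a), 1 with centred libraries (Rps20) and 14 with weights, all lower. The lowest of these weights was that of WT trained 1, at 0.309. For training in KO, 0.00575% of genes passed without a filter and 0.954% with weights, with 1 member among them (Rpl22l1, adjusted p = 0.0347). For the difference of responses, 0.00983% passed with quantile normalization and 0.00575% without a filter. For KO against WT, 0.0524% passed among untrained mice with a filter at 5 RPKM and 0.0295% with only the groups compared, and 0.0295% among trained mice with only the groups compared. The causes were not tested. Same-numbered libraries had a correlation over 0.1 in 6 of 24 pairs, the range being -0.18 to 0.44. Between KO untrained and KO trained it was above 0 for every number (0.15, 0.19, 0.44 and 0.05). These values do not decide whether the numbers carry a pairing. With the replicate block, 0.157% of genes passed for training in WT, and 0% in KO and for the difference. For KO against WT it was 0.0393% untrained and 0.0492% trained. No member passed in any of these comparisons.

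The members' median in training in WT was -0.06 when scaled to reads in listed genes, where the median of all genes moved to 0.08; for KO against WT untrained it was -0.05 with quantile normalization. The median for training in KO was 0.00 with quantile normalization, centring and listed reads. Rpl3l, near 0 throughout, changed sign: in training in WT to -0.000821 centred and -0.0220 with weights, in KO to -0.00743 with weights, in the difference to -0.0261 with quantile normalization and -0.00444 with listed reads, and between untrained genotypes to 0.0154 with quantile normalization.

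Leaving out each library in turn gave 0% to 2.67% of genes and 0 to 18 members for training in WT (median -0.20 to -0.09), 0% to 1.04% and 0 to 1 member in KO (median -0.09 to -0.03), and 0% to 0.0197% for the difference (median 0.03 to 0.15). For KO against WT it gave 0.0295% to 0.0492% among untrained and 0.0197% to 0.0885% among trained mice (median -0.09 to 0.04). Single members ran from -0.0655 to 0.182 for Rpl22l1 in training in WT, and for Rpl3l from -0.0434 to 0.0348 in WT, -0.0300 to 0.0308 in KO and -0.0324 to 0.0495 for the difference. Rpl30, Rpl3 and Rps27 rest on few reads.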
